A study of Mus musculus with 8 samples.

Results

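The growth factors macrophage-stimulating protein (Mst1) and hepatocyte growth factor (Hgf), their receptors Mst1r (RON) and Met, the activating proteases Hgfac, St14, Prss8 and Hpn, and the protease inhibitors Spint1 and Spint2 were examined in a mouse mammary cancer cell line. These 10 genes were found by symbol among the non-control spots of each array, where they had 14 of the 55681 probes. Mst1 here is the secreted growth factor, not the Hippo pathway kinase Stk4 that shares the alias. The genes were chosen by their measured difference between the sorted fractions together with their pathway, so these differences are given as a description and not as tests.

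The cells were MAM326, a murine mammary cancer line, grown in DMEM with heat-inactivated fetal bovine serum and separated by fluorescence-activated cell sorting on day 2 after seeding. The series held 4 arrays of the GFP-positive fraction and 4 arrays of the GFP-negative fraction, from independent experiments at different passages. All of them came from a single line, and neither what drives GFP nor any treatment or genotype that sets the fractions apart is given in the sources used here. Each array was a one-colour Agilent expression array hybridised with Cy3-labelled cRNA, and a p-value measures only the spread over these 8 arrays, which may be partly technical.

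Mst1 and HGF are related proteins that are secreted as inactive single chains. Cleavage by trypsin-like serine proteases turns each into a disulphide-linked dimer that activates its receptor tyrosine kinase, Mst1r for Mst1 and Met for HGF. In epithelia, including the mammary gland, the membrane-bound proteases that do this are held in check by the Kunitz-type inhibitors Spint1 (HAI-1) and Spint2 (HAI-2), while HGF itself is typically made by stromal cells and Mst1 and Hgfac by the liver.

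The Mst1 measurement rested on a pair of overlapping probes, and the stretch in which they differ is shown because it tells how far they are independent. Each probe is 60 bases long, they are offset by 10 bases and share 50, and the comparison found 1 substitution, T40C, counted from the 5′ end of probe A_55_P2115392. The stretch covers mm9 chr9:107987289-107987313 on the plus strand as the files place the probes, with the differing base in capitals.
Mst1 A_55_P2115392: atgtcaagacttTtcaaacataaag
Mst1 A_55_P1984098: atgtcaagacttCtcaaacataaag
Both probes read nearly the same piece of transcript, so their values are a technical repeat. Which of these bases the genome carries was not analysed here.

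The promoters of Spint1 and Spint2 are shown because these inhibitors had the same pairs of arrays highest and lowest. St14 and Prss8 shared these pairs, but no window was at hand for them. Each window holds 300 bases around the start given by RefSeq for GRCm38.p6, and is printed 5′ to 3′ on the gene's strand. Capitals mark AACCGG, a core sequence of grainyhead-like factors, in Spint1 and CAGGTG, an E-box sequence that Snail and ZEB repressors can bind, in Spint2, both searched on either strand. The Spint1 window is chr2:119237110-119237409 on the plus strand and the Spint2 window is chr7:29281928-29282227 on the minus strand.
Spint1: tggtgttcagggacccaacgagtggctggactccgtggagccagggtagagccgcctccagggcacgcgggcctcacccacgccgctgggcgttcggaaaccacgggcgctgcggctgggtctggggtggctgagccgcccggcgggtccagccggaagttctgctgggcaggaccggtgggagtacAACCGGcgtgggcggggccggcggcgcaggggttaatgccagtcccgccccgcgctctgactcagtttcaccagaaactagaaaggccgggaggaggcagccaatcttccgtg
Spint2: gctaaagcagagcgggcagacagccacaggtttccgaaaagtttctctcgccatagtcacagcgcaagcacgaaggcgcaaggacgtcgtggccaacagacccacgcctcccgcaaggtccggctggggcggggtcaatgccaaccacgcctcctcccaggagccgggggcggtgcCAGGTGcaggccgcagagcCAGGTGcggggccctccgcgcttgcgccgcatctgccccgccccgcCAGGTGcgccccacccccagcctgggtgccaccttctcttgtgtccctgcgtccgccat
Spint1 held 1 AACCGG and 0 CAGGTG, and Spint2 held 0 AACCGG and 3 CAGGTG. RefSeq promoter windows were at hand for 8 of the genes, 11 windows in all. AACCGG was present in 2 of these 11 windows and in 6.8% of 32851 mouse promoter windows of this length, and CAGGTG was present in 4 of the 11 and in 20.2% of all. The motifs cannot overlap each other, and a match describes the letters only.

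Levels below are log2 processed signals relative to the 75th percentile of their own array, so a value of 0 stands for that percentile, and no probe's level is set against another's. Each array had 45.1% to 57.4% of its probes well above background, by the extraction program's own mark, and no spot was saturated. A gene entered the fit through its brightest probe if that probe was well above background on at least 4 of 8 arrays, which left 19701 features. All arrays lay on 1 slide, in 2 rows: GFP-positive replicates 1 and 3 and GFP-negative replicates 2 and 4 were in row 1, and GFP-positive replicates 2 and 4 and GFP-negative replicates 1 and 3 in row 2. The lowest level well above background lay between -5.65 and -5.45 in row 1 and between -4.92 and -4.37 in row 2. Slide row and the replicates that lay in it cannot be told apart, and in sorted fractions fewer cells of a type and less RNA per cell cannot be told apart either.

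Of the 10 genes, 9 passed the filter, through 13 of the 14 probes, and Mst1r did not. In the comparison of GFP-positive with GFP-negative cells, 1 of these 9, Mst1, had an adjusted p under 0.05 in limma, against 2.56% of all features, and nothing is read from that count because this comparison chose the genes. Mst1 was also the only one of the 9 with every GFP-positive array above every GFP-negative array, a pattern that 5.07% of all features showed, while 16.7% had no overlap in one direction or the other. Nothing is read from this separation either. Mst1 was chosen by this comparison and met the filter only through the GFP-positive arrays. The difference was positive for 7 of the 9 genes, a count that the choice of genes also affects, and for 7750 of all 19701 features. The median difference over all features was -0.06.

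**Figure D1:**
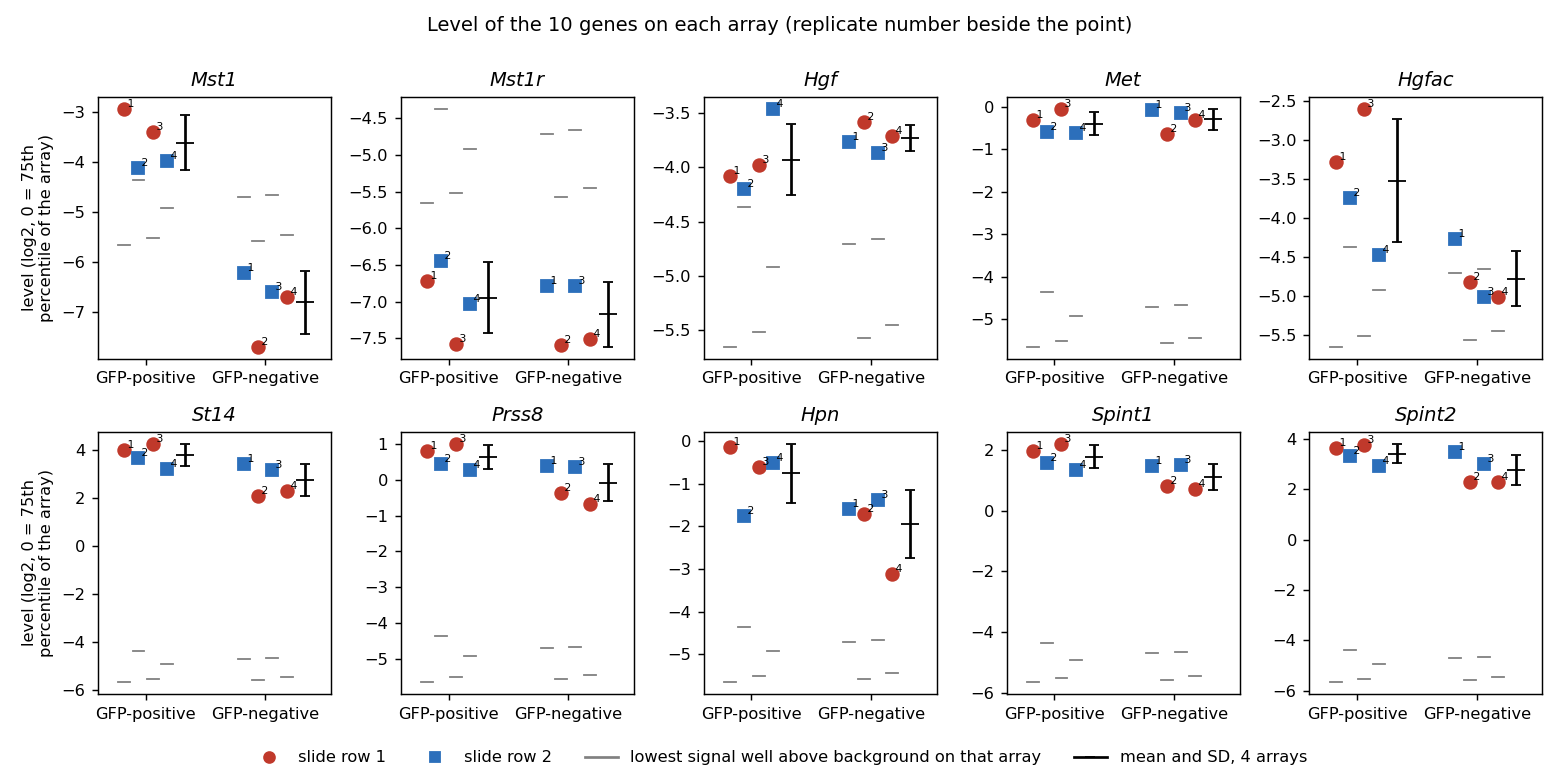
Level of each of the 10 genes on each array (log2, 0 is the 75th percentile of the array), GFP-positive left of GFP-negative, with the replicate number beside each point. Red circles are slide row 1 and blue squares slide row 2, grey dashes give the lowest level well above background on that array, and black bars give the mean and SD of 4 arrays; in Mst1 the GFP-negative points, at -7.68 to -6.21, all lie below the dashes.

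Among the ligands, Mst1 stood apart. Its brighter probe, A_55_P1984098 (mm9 chr9:107987272-107987331), had levels of -2.94, -4.13, -3.41 and -3.99 on GFP-positive arrays 1 to 4, against -6.21, -7.68, -6.59 and -6.69 on GFP-negative arrays 1 to 4. The groups did not overlap, and the probe was well above background on 4 of 4 GFP-positive arrays and on 0 of 4 GFP-negative arrays. The mean level was -3.62 ± 0.55 in the GFP-positive fraction, against -6.79 ± 0.63 in the GFP-negative fraction (SD, n = 4 each), which is a measured difference of 3.17 ± 0.37 (SE).

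Because the GFP-negative side was not well above background, only a bound on the Mst1 fold can be given. Each GFP-negative array was counted at its lowest level well above background, or at the Mst1 reading where that was higher, and against the mean of these Mst1 was at least 2.79-fold higher in GFP-positive cells. By row the bound was at least 5.04-fold in row 1 and at least 1.54-fold in row 2, and the measured differences were 4.01 and 2.34. The size depended on how background was handled. With normexp correction and an offset of 50, which lifts dim signals, the measured difference was 0.64 on the log2 scale, still positive. That is below the bound over all arrays, 1.48 on the same scale, so the bounds hold only for the deposited processed signal.

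The overlapping Mst1 probe, A_55_P2115392 (mm9 chr9:107987262-107987321), had levels of -3.47, -3.88, -3.83 and -3.86 on GFP-positive arrays 1 to 4, against -6.14, -6.95, -6.61 and -7.33 on GFP-negative arrays 1 to 4. It too separated the groups completely, with detection on 4 and 0 arrays and a bound of at least 2.53-fold.

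Hgf, the ligand of Met, did not show this pattern. Its probe A_51_P484998 (mm9 chr5:16124829-16124888) had levels of -4.08, -4.20, -3.98 and -3.46 on GFP-positive arrays 1 to 4, against -3.77, -3.58, -3.87 and -3.71 on GFP-negative arrays 1 to 4. The groups overlapped, since GFP-positive array 4 was the highest of the 8 while the other three were the lowest. The difference was -0.20 ± 0.16 (SE), and the signal was well above background on 3 of 4 GFP-positive and 4 of 4 GFP-negative arrays. Within rows the difference was -0.39 in row 1 and -0.01 in row 2.

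The receptor of Mst1, Mst1r, was not well above background in either fraction. Its probe A_51_P110672 (mm9 chr9:107822566-107822625) was printed as 10 spots on each array, and none of the 70 spots used, over all 8 arrays, was well above background. Its levels were -6.72, -6.45, -7.57 and -7.03 on GFP-positive arrays 1 to 4, against -6.79, -7.59, -6.78 and -7.51 on GFP-negative arrays 1 to 4, and no fold is given. The groups overlapped, and every array read below its own lowest level well above background. The gene lies on the chromosome of Mst1, its probe 165 kb away.

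Met, the HGF receptor, was measured in both fractions at similar levels. Its probe A_51_P103929 (mm9 chr6:17503299-17503358), also printed as 10 spots, had levels of -0.31, -0.60, -0.05 and -0.62 on GFP-positive arrays 1 to 4, against -0.08, -0.64, -0.14 and -0.31 on GFP-negative arrays 1 to 4. The groups overlapped throughout, and all 73 spots used were well above background. The SD between spots on an array was 0.05 to 0.19, while the difference between fractions was -0.10 ± 0.17 (SE), being 0.30 within row 1 and -0.50 within row 2.

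Among the proteases, Hgfac, a plasma protease that cleaves both pro-HGF and pro-Mst1, was measured near background. Its probe A_51_P101545 (mm9 chr5:35390807-35390866) had levels of -3.28, -3.74, -2.60 and -4.47 on GFP-positive arrays 1 to 4, against -4.27, -4.82, -5.02 and -5.01 on GFP-negative arrays 1 to 4. The groups overlapped only through GFP-positive array 4, which lay below GFP-negative array 1. The signal was well above background on 3 of 4 GFP-positive and 2 of 4 GFP-negative arrays, and the difference was 1.26 ± 0.38 (SE), a 2.39-fold measured ratio that became 0.39 on the log2 scale with normexp correction. Within rows the difference was 1.98 in row 1 and 0.54 in row 2.

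St14 (matriptase), a membrane-bound protease of epithelia that activates HGF and Mst1 on the cell surface, was measured on all arrays by probe A_51_P282837 (mm9 chr9:30897249-30897308). Its levels were 4.01, 3.68, 4.26 and 3.20 on GFP-positive arrays 1 to 4, against 3.42, 2.08, 3.19 and 2.30 on GFP-negative arrays 1 to 4. GFP-positive arrays 3 and 1 were highest and GFP-negative arrays 2 and 4 lowest, with the other four between them and the groups overlapping there. The difference was 1.04 ± 0.35 (SE), or 2.06-fold.

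Prss8 (prostasin), a membrane-anchored protease that works in a cascade with matriptase, had the same pairs of arrays highest and lowest by probe A_55_P2071191 (mm9 chr7:135069848-135069907). Its levels were 0.80, 0.45, 1.00 and 0.28 on GFP-positive arrays 1 to 4, against 0.37, -0.38, 0.35 and -0.67 on GFP-negative arrays 1 to 4. Again GFP-positive arrays 3 and 1 were highest, GFP-negative arrays 2 and 4 lowest, and the groups overlapped between. The difference was 0.72 ± 0.27 (SE), or 1.64-fold, and a further probe, A_55_P2013586, gave 0.66.

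Hpn (hepsin), a transmembrane protease that also cleaves pro-HGF and pro-Mst1, was the most scattered of the proteases measured on all arrays. Its probe A_55_P1973583 (mm9 chr7:31883750-31883809) had levels of -0.15, -1.75, -0.62 and -0.52 on GFP-positive arrays 1 to 4, against -1.59, -1.71, -1.38 and -3.11 on GFP-negative arrays 1 to 4. GFP-positive array 2 fell among the GFP-negative arrays and GFP-negative array 4 stood below all others. The mean level was -0.76 ± 0.69 in the GFP-positive fraction and -1.95 ± 0.79 in the GFP-negative fraction (SD, n = 4 each), and the difference was 1.18 ± 0.46 (SE), or 2.27-fold, being 2.02 within row 1 and 0.35 within row 2.

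The inhibitors had the same pairs of arrays highest and lowest as St14 and Prss8, which they restrain. Spint1 by probe A_51_P341108 (mm9 chr2:119074929-119074988) had levels of 1.97, 1.58, 2.20 and 1.35 on GFP-positive arrays 1 to 4, against 1.47, 0.80, 1.49 and 0.70 on GFP-negative arrays 1 to 4. Spint2 by probe A_66_P124011 (mm9 chr7:30041332-30041381) had levels of 3.64, 3.34, 3.78 and 2.91 on GFP-positive arrays 1 to 4, against 3.48, 2.28, 2.99 and 2.30 on GFP-negative arrays 1 to 4. In both, GFP-positive arrays 3 and 1 were highest and GFP-negative arrays 2 and 4 lowest, and the groups overlapped between.

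The difference was 0.66 ± 0.25 (SE) for Spint1 and 0.66 ± 0.31 (SE) for Spint2, each 1.58-fold. A further probe of Spint1, A_55_P2055324, gave 0.62. For Spint2 the probes differed in size: A_55_P2111713 had levels of 2.64, 2.54, 2.55 and 2.42 on GFP-positive arrays 1 to 4, against 2.49, 1.99, 2.31 and 1.84 on GFP-negative arrays 1 to 4, a difference of 0.38. That probe spanned a narrower range over the 8 arrays, with the same GFP-negative arrays lowest.

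An interaction term of fraction and slide row was fitted over all 19701 features, of which 1.20% had an adjusted p under 0.05 (limma, Benjamini-Hochberg). By the slide layout, this term is also the contrast of even-numbered with odd-numbered arrays over both fractions. It therefore cannot tell a fraction difference that depends on row from a replicate shift common to both fractions. The interaction is a different contrast from the average difference that chose the genes. However, an earlier result of these data had shown that epithelial genes differ by row. The interaction values and counts below are therefore a description and not an independent test. Prss8 differed by 1.43 within row 1 and by 0.00 within row 2, an interaction of -1.42 ± 0.20 (SE, adjusted p = 0.0430, limma). Spint1 differed by 1.34 within row 1 and by -0.02 within row 2, an interaction of -1.36 ± 0.18 (SE, adjusted p = 0.0420, limma).

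St14 differed by 1.94 within row 1 and by 0.14 within row 2, and its interaction of -1.81 ± 0.28 (SE, adjusted p = 0.0510, limma) did not pass. Spint2 differed by 1.42 and -0.11, with an interaction of -1.53 ± 0.30 (SE, adjusted p = 0.0723, limma). The interactions of Mst1, -1.68 ± 0.49, Hgfac, -1.44 ± 0.53, Hpn, -1.68 ± 0.80, Met, -0.80 ± 0.21, and Hgf, 0.38 ± 0.33, had adjusted p from 0.128 to 0.564 (limma). Thus 2 of the 9 genes passed, or 4 with normexp correction, which adds St14 and Spint2. At an unadjusted p under 0.05 the count was 7 of 9, against 19.3% of all features. That count includes Mst1, whose GFP-negative readings were not well above background in either row. When any 1 array was left out 0 passed (limma), 6 to 8 of 9 having an unadjusted p under 0.05, with interactions of -1.57 to -1.28 for Prss8 and -1.47 to -1.24 for Spint1. For St14, Prss8, Spint1 and Spint2 the difference was thus 1.34 to 1.94 in row 1 and -0.11 to 0.14 in row 2. Each row sets odd-numbered arrays of either fraction against even-numbered arrays of the other, so these values do not show whether row or replicate matters. Between arrays of the same number, 1 to 4, which are not known to pair, St14 differed by 0.59, 1.60, 1.07 and 0.91. Prss8 differed by 0.43, 0.83, 0.64 and 0.95, Spint1 by 0.50, 0.78, 0.71 and 0.65, and Spint2 by 0.16, 1.06, 0.80 and 0.61.

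**Figure D2:**
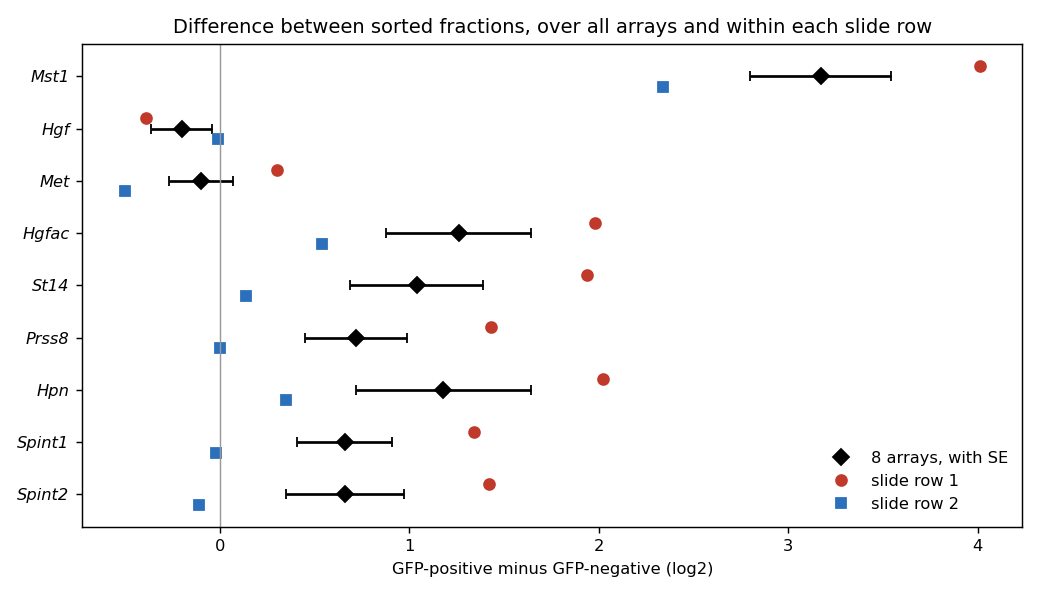
Difference between GFP-positive and GFP-negative cells (log2) for the 9 genes that passed the filter, over all 8 arrays (black diamonds, with SE) and within slide row 1 (red circles) or row 2 (blue squares). Mst1 lies right of 0 in both rows, at 4.01 and 2.34, whereas Prss8, Spint1 and Spint2 lie right of 0 in row 1 and between -0.11 and 0.00 in row 2.

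The levels of St14, Prss8, Spint1 and Spint2 were set beside an epithelial score, the mean level of 34 measured genes of epithelial junctions and identity, such as those for E-cadherin, claudins, desmosomal proteins and simple keratins. The score was 2.15, 1.82, 2.23 and 1.60 on GFP-positive arrays 1 to 4, against 1.70, 1.04, 1.77 and 1.00 on GFP-negative arrays 1 to 4. The arrays thus fell into 3 separate levels, with GFP-positive arrays 1 and 3 at the top, all of row 2 in the middle and GFP-negative arrays 2 and 4 at the bottom, the order seen in these proteases and inhibitors. With clusters this small no correlation over the arrays can be read as a test, and whether the epithelial state of the fractions has a part in these differences was not tested.

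**Figure D3:**
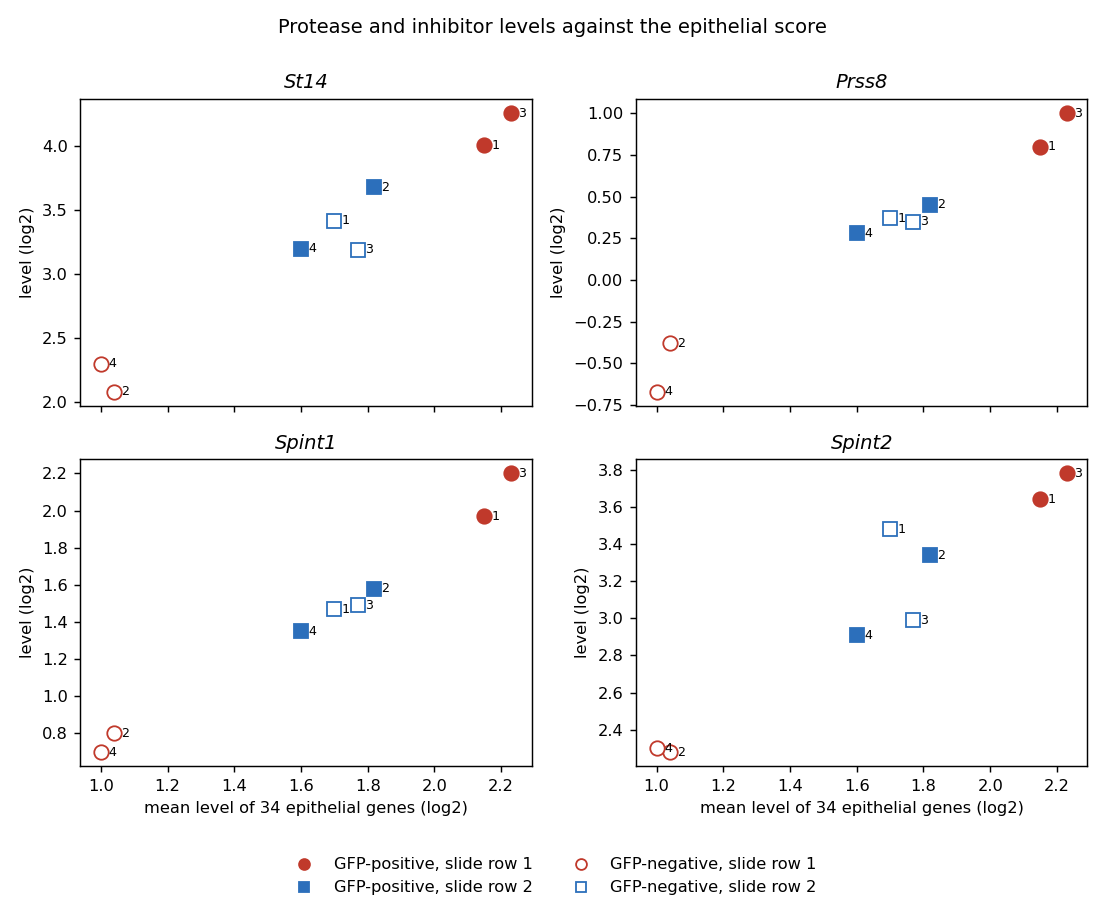
Level of St14, Prss8, Spint1 and Spint2 (log2) against the mean level of 34 epithelial genes (log2) on each array, with filled symbols for GFP-positive, open symbols for GFP-negative, circles for slide row 1 and squares for row 2. In all 4 panels GFP-positive arrays 1 and 3 lie at the upper right (score 2.15 and 2.23) and GFP-negative arrays 2 and 4 at the lower left (1.04 and 1.00).

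Mst1 had GFP-positive arrays 1 and 3 highest and GFP-negative arrays 2 and 4 lowest as well, with row 2 between them. Its GFP-negative readings were all below the lowest level well above background, which was itself lower in row 1, so their order is not read. Mst1r, well above background on no array, had the same GFP-negative order, at -7.59 and -7.51 on arrays 2 and 4 against -6.79 and -6.78 on 1 and 3. Within row 2, the GFP-positive arrays of Mst1, at -4.13 and -3.99, lay above its GFP-negative arrays, at -6.21 and -6.59. The score there was 1.82 and 1.60 against 1.70 and 1.77. The 5 features whose level followed that of Mst1 most closely over the 8 arrays were Camk2b (Pearson r = 0.998), Trim7 (0.995), Echdc3 (0.992), a chromosome 1 transcript named only by its position (0.990) and Celf5 (0.990). All were well above background on all 8 arrays, and their own differences were 1.49, 1.61, 0.86, 1.05 and 2.82. Each r draws on the GFP-negative readings of Mst1, which were not well above background, and on the gap between fractions that chose the gene. The likenesses are therefore only a description, over arrays that share the sorted groups and the slide.

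Genes beside Mst1 on chromosome 9 did not differ as it did. The 7 genes with a measured probe within 100 kb of the Mst1 probe had differences from -0.41 to 0.33, with 0 at an adjusted p under 0.05 and 0 at an unadjusted one (limma). Apeh, an acylpeptide hydrolase gene whose probe lies 0.6 kb from that of Mst1, had a mean level of 4.37 in the GFP-positive fraction, against 4.24 in the GFP-negative fraction, a difference of 0.13 ± 0.08 (SE). The other six were Cdhr4, Ip6k1, Gmppb, Rnf123, Amigo3 and 4930447F24Rik.

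Of the 3 genes measured within 100 kb of the Hgfac probe, Rgs12, which speeds GTP hydrolysis by G protein alpha subunits, was higher in GFP-positive cells. Its mean level was 4.16 in the GFP-positive fraction, against 3.38 in the GFP-negative fraction, a difference of 0.78 ± 0.12 (SE, adjusted p = 0.0167, limma). That call was lost within row 2, with a replicate block, with no filter on dim probes and without any one of GFP-positive replicate 1 or GFP-negative replicates 2, 3 and 4, with adjusted p up to 0.433 and differences from 0.58 to 0.79 in these settings. Dok7 and Lrpap1 differed by -0.16 and -0.25 and did not pass.

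Other genes of the pathway were taken from lists, chosen with earlier results of these data known. Of 95 measured genes on 6 lists, 3 were higher and 1 was lower in GFP-positive cells at an adjusted p under 0.05 (limma), against 1.82% of all features higher and 0.741% lower. Of 11 measured proteases that can activate these ligands or related substrates, such as urokinase and TMPRSS family members, none passed in either direction (limma), while before adjustment 3 had p under 0.05 with a positive difference and 0 with a negative one, against 7.83% and 15.1% of all features, and their median difference was 0.52. The example with the largest difference, Tmprss4, a transmembrane protease of epithelial tumours, averaged -0.71 in the GFP-positive fraction and -2.46 in the GFP-negative fraction, a difference of 1.75 ± 0.42 (SE, adjusted p = 0.0684, limma).

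Of 8 other protease inhibitors, 1 was higher and 0 were lower, with a median difference of 0.19. Serpine2 (protease nexin-1), a serpin that inhibits thrombin, urokinase and prostasin, had levels of 1.25, 1.07, 1.62 and 1.42 on GFP-positive arrays 1 to 4, against 0.03, -0.54, -0.99 and -0.92 on GFP-negative arrays 1 to 4. The groups did not overlap, and Serpine2 rose 3.84-fold in GFP-positive cells, by 1.94 ± 0.23 on the log2 scale (SE, adjusted p = 0.00643, limma). The call was lost with the replicate number as a block (adjusted p = 0.0514) and within row 2.

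Of 9 measured substrates of matriptase and prostasin, such as Par2 (F2rl1) and the alpha subunit of the epithelial sodium channel (Scnn1a), none passed (limma), while before adjustment 2 had p under 0.05 with a positive difference and 0 with a negative one (7.83% and 15.1% of all features), with a median difference of 0.36. Of 21 co-receptors and regulators of Met and Mst1r, such as Cd44, integrins and plexins, 1 was higher and 0 were lower, with a median of 0.09. That gene was Fas, a death receptor reported to associate with Met, with levels of 1.73, 1.72, 1.91 and 1.78 on GFP-positive arrays 1 to 4, against 0.42, 0.59, 0.33 and 0.61 on GFP-negative arrays 1 to 4. Fas was 2.46-fold higher without overlap, by 1.30 ± 0.09 (SE, adjusted p = 0.000636, limma), and the call was lost only within row 2, where the difference was 1.38, of the settings tried.

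Among 28 signalling adaptors and effectors of these receptors, 1 was higher and 1 was lower, with a median difference of -0.07. Inpp5d (SHIP1), a phosphatase that removes the 5-phosphate from the lipid product of PI3-kinase, had levels of -0.35, -0.71, -0.38 and -0.93 on GFP-positive arrays 1 to 4, against -2.96, -4.41, -3.91 and -3.70 on GFP-negative arrays 1 to 4. It was 8.94-fold higher without overlap, by 3.16 ± 0.29 (SE, adjusted p = 0.00176, limma), and the call was lost only within row 2, where the difference was 2.62, of the settings tried.

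Of 21 transcripts known to be induced by HGF signalling, such as Plau, Mmp9, Ptgs2 and Dusp6, none passed (limma), while before adjustment 1 had p under 0.05 in each direction (7.83% of all features higher and 15.1% lower), with a median of -0.07, near the -0.06 of all features.

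**Figure D4:**
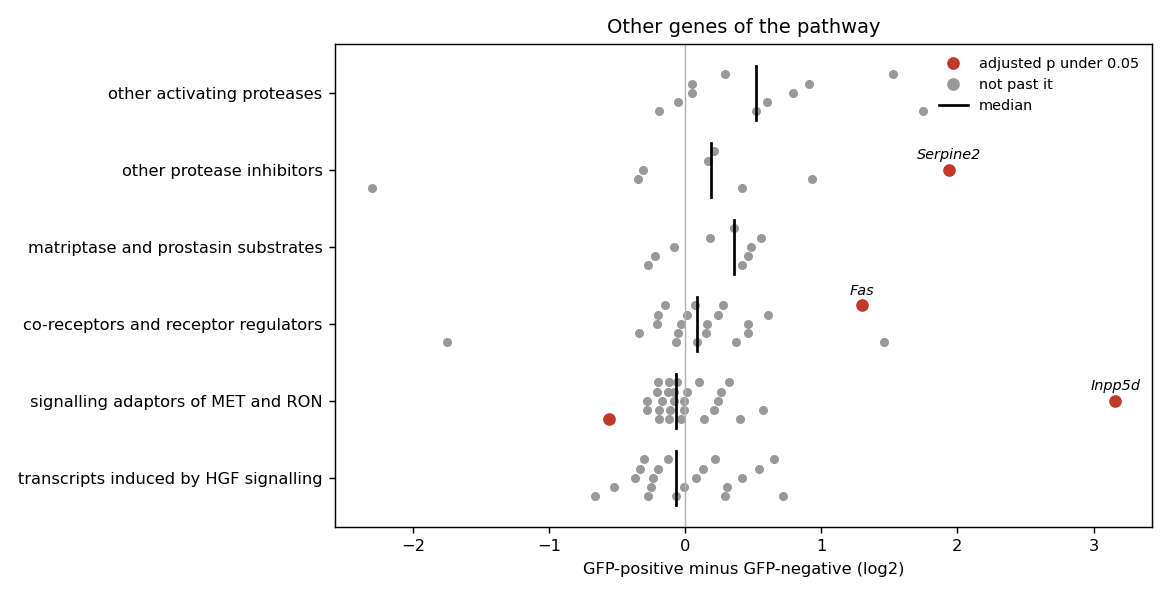
Difference between GFP-positive and GFP-negative cells (log2) for each measured gene of the 6 pathway lists, one point a gene, with the median of each list as a black line. Red points have an adjusted p under 0.05, and those right of 0 are Serpine2 at 1.94, Fas at 1.30 and Inpp5d at 3.16.

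Markers of the cell types that usually make these ligands were examined beside them. Summed levels were added before the log was taken, so the brightest genes of a list made up most of its sum. Of 35 epithelial genes, 33 were well above background on all 8 arrays, and the summed level of the list ranged over 9.63 to 10.21 in GFP-positive and 9.25 to 9.94 in GFP-negative arrays (log2). All 34 that passed the filter had positive differences, with a median of 0.56, and none passed the test (limma), while before adjustment 13 had p under 0.05, all of them higher, as did 7.83% of all features.

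Of 14 hepatocyte markers, 1 was well above background on all 8 arrays and 7 on none, among them Alb, Apoa1 and Fgb. The one on all arrays was Apoa2, at a mean level of 1.51 in the GFP-positive fraction and 1.41 in the GFP-negative fraction, while Tat and Serpina1e were well above background on 4 of 4 GFP-positive and 3 of 4 GFP-negative arrays each. The summed level of the list, mostly that of Apoa2, was 1.61 to 1.78 in GFP-positive and 1.42 to 1.65 in GFP-negative arrays. Of 12 fibroblast markers, 7 were well above background on all 8 arrays and 3 on none (Dpt, Fap and Lum), with a summed level of 2.01 to 5.93 in GFP-positive and 3.90 to 7.43 in GFP-negative arrays. Of the 9 that passed the filter 7 had negative differences, and the median was -1.38. Examples were Col1a1 at -2.12 ± 1.19, Col1a2 at -1.95 ± 1.03 and Dcn at -1.75 ± 0.51 (SE). Postn at 0.30 ± 0.81 and Thy1 at 0.39 ± 0.38 (SE) went the other way. The fractions overlapped in each of the 9. None of the 9 passed the test (limma), while before adjustment 2 had p under 0.05, both of them lower, as did 15.1% of all features. The part of these genes in the differences of Hgf and the other genes described was not tested.

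Of 8 endothelial markers, 2 (Egfl7 and Kdr) were well above background on all 8 arrays and 4 on none. The summed level, mostly that of these 2, was 3.93 to 4.27 in GFP-positive and 4.21 to 4.32 in GFP-negative arrays. Of 10 leukocyte markers, 4 were well above background on all 8 arrays and 3 on none, with a summed level of 3.82 to 4.53 in GFP-positive and 3.73 to 4.32 in GFP-negative arrays. Cd68, a lysosomal glycoprotein used as a macrophage marker, was the 1 marker of these lists that passed, 2.00-fold higher, by 1.00 ± 0.11 (SE, adjusted p = 0.00436, limma), though not within row 2, where the difference was 0.76.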

How the data were processed

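Each deposited file was the scanner output of 1 array. Per the file headers, intensity values were extracted with Agilent Feature Extraction 10.7.3.1, a program also named in the submitters' processing notes, and the deposited processed signal was already corrected for background. What the authors did after extraction was not stated. Groups and replicate numbers came from the labels.

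Between 106 and 186 spots per array, marked non-uniform or population outliers, were removed. The log2 of the processed signal was set relative to the 75th percentile of the array, and spots of one probe were averaged. Kept probes were well above background on at least 4 of 8 arrays (27574), and the brightest of these stood for its gene. Accessions of 27509 of 55681 probes (49.4%) matched RefSeq. The difference GFP-positive minus GFP-negative came from limma (version 3.58.1; lmFit, then eBayes; two-sided p, Benjamini-Hochberg over 19701 features, threshold 0.05) in R 4.3.3 with the data.table package (version 1.17.8). The interaction of group and slide row used the same features. The genes, lists and tests were chosen with earlier results of these data known.

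The text names all 10 genes with every probe, up to 4 genes past the threshold with the largest difference from each list, the 5 features most like Mst1, and genes within 100 kb of the Mst1 or Hgfac probe; other genes named without a test call, Tmprss4 among them, illustrate a list. One list gene that passed is counted but not reported here. The number of arrays limits the precision. On simulated data with 50 changed features per size, the comparison of fractions recovered 30%, 62%, 90% and 96% of differences of 0.5, 1, 2 and 3 on the log2 scale with 10 false calls, and the interaction test recovered 0%, 6%, 50% and 72% with 5 false calls. The simulated noise was independent for each feature and array. These figures therefore do not cover shifts that many features share on an array, as seen in the real data. Alternatives were normexp background correction, quantile normalization, other filters, replicate and slide-row blocks, fits within each row, array weights, an intensity trend with robust prior and leaving out each array.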

Additional observations from a re-analysis of the deposited data

Results flagged for a closer look

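Among the 14 probes, 28 groups of 4 arrays were examined for an array far from the others by Dixon's criterion, and 1 group met it. The overlapping Mst1 probe A_55_P2115392 read -3.47 on GFP-positive replicate 1, above the other GFP-positive arrays, at -3.88 to -3.83. Chance marks about 1 in 20 such groups.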

How the results depend on the processing

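Leaving out each array in turn kept the number of the 10 genes past the threshold at 1 (1 to 1), that of pathway genes at 3 to 4 against 4, and that of all features at 151 to 428 against 505. Mst1 kept its sign in all 18 alternatives, with differences of 0.64 to 4.01, and passed in 17 of them, the exception being row 2. The Mst1 probe met the main filter only through the 4 GFP-positive arrays. All settings reuse the arrays whose comparison chose the genes, so the counts of these genes describe the processing and are no further test. Within slide row 1, 6 of the genes (Hgfac, Mst1, Prss8, Spint1, Spint2 and St14), 15 pathway genes and 1050 features passed. Within row 2 none did, the counts being 0, 0 and 0 (limma), with 1 gene higher and 1 lower, 13 pathway genes and 2144 features at an unadjusted p under 0.05. Array weights gave 2 (Hgfac and Mst1), 10 and 1826, and an intensity trend with robust prior 1, 7 and 1166. All features numbered 788 with normexp correction, 154 with no filter, 278 with slide row as a block and 215 with the replicate number as a block. The replicate block left 1 gene (Mst1) and 3 pathway genes past the threshold. Deviations of same-numbered arrays correlated at -0.03, 0.07, 0.02 and 0.18. GFP-positive 1 with GFP-negative 3, 3 with 1, 2 with 4 and 4 with 2 correlated at 0.43, 0.60, 0.34 and 0.65. Odd with even numbers correlated at -0.53 to -0.16. No array correlated best with its own number, so the numbers were not taken to pair the arrays. Quantile normalization turned the pathway split of 3 higher and 1 lower into 4 and 0.

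The interaction with slide row passed for 2 genes, for 4 with normexp correction, for 3 with quantile normalization and for 0 to 0 with any 1 array left out, an alternative chosen after seeing the data; the cause was not tested. A planned correlation with the epithelial score joined 3 separate clusters of arrays and was not used as a result: 7 genes passed over 8 arrays, 3 without the 2 arrays farthest from the median score, and 4 to 8 with 1 array left out, chosen after seeing the data. Of the 14 probes, 9 were well above background on all 8 arrays. With the extraction program's other detection mark, positive and significant, the brighter Mst1 probe was detected on 4 GFP-positive and 3 GFP-negative arrays. Signal near background limits Mst1, Mst1r, Hgf and Hgfac.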
